A study of Mus musculus with 6 samples.

Results

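The genes described here, called granule genes, encode proteins of neutrophils and eosinophils, most of them stored in granules. They are Mpo, Elane, Prtn3, Ctsg, Lyz2, S100a8, S100a9, Ltf, Prg2 and Epx, and they were measured in sorted mouse megakaryocyte progenitors, marrow cells that mature into the large platelet-forming cells. The members were all probes that the platform annotation assigned to these 10 genes, which were 14 of the 46632 probes and 10 of the 17711 named genes on the array. Mpo and Lyz2 had 3 probes each and the other 8 genes had 1 each. The study compared 3 TG +/+ samples, which were wild-type at the Scl locus, with 3 TG fl/fl samples, in which floxed Scl alleles are described as fully excised. All animals, controls included, carried the TGPF4-CRE transgene, in which the Pf4 promoter drives Cre recombinase in the megakaryocyte lineage, and none of the groups was free of Cre. The mice were of the strain mix 129SVxC57Bl/6 and 3 to 4 months old. Scl is an older name of Tal1, the gene of a helix-loop-helix protein that binds DNA and is needed to form blood. The labels do not say whether samples came from separate animals or from pools, so each p-value is set against a spread among arrays that may be in part technical.

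Granulocytes make their granule proteins in waves as they mature. The azurophil granules come first, at the promyelocyte stage, and hold myeloperoxidase with the serine proteases neutrophil elastase, proteinase 3 and cathepsin G, while lactoferrin and other specific granule proteins are made later. Eosinophil granules hold major basic protein and eosinophil peroxidase. Megakaryocytes descend from progenitors shared with other myeloid lineages, and transcripts of granulocyte genes can be found in such progenitors at low levels.

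The RefSeq promoter windows (build GRCm38.p6, 250 bases before to 50 after each gene's start) matched 9 of the 10 genes, all but Prg2. The windows of the neighbouring protease genes Elane and Prtn3 and of S100a9 and Ltf are shown because these pairs stand for the azurophil genes and for the S100 and specific granule genes, whose levels ran differently over the arrays. Capitals mark GAGGAA on either strand, the core bound by the myeloid factor PU.1, and TTNNGCAA on either strand, a form of the C/EBP site, and the capitals of these motifs do not overlap.
Elane (chr10:79886062-79886361, plus strand): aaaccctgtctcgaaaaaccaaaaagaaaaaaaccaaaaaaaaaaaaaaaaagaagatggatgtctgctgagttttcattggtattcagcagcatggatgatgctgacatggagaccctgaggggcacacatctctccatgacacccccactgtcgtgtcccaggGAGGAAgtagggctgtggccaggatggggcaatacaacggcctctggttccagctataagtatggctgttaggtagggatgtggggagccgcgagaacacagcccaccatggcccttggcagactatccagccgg
Prtn3 (chr10:79879417-79879716, plus strand): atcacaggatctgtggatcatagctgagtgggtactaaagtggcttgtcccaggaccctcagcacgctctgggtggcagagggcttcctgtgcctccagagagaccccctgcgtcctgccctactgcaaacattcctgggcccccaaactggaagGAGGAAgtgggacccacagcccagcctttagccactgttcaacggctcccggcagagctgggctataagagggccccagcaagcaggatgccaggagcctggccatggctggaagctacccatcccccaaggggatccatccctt
S100a9 (chr3:90695672-90695971, minus strand): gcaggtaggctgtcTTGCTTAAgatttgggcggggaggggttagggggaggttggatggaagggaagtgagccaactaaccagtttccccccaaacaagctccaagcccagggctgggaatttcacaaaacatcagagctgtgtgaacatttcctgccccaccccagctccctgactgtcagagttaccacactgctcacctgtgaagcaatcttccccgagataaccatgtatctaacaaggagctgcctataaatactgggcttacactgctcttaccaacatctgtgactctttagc
Ltf (chr9:111019042-111019341, plus strand): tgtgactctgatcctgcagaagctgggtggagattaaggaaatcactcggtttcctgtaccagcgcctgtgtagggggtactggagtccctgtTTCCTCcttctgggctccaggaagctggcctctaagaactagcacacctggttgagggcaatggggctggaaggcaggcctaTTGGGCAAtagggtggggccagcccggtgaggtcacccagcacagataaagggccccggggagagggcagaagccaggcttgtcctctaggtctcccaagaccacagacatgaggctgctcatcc
GAGGAA lay in 6 of the 9 windows, those of Mpo, Elane, Prtn3, Ctsg, S100a8 and Ltf, against 28.3% of all 32851 windows in the table. It began at position -85 from the gene's start in Elane and at -95 in Prtn3. TTNNGCAA was found in 2 windows, S100a9 and Ltf, against 10.8% of all windows. CANNTG, the E-box that TAL1 and its partners can bind, was present in 6 windows (72.3% of all windows), and GATAA, in either orientation, in S100a9 and Ltf (25.4% of all windows). These matches describe letters in the windows and are not evidence of binding.

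Levels are the authors' deposited log2 values, which were normalized between arrays, and a probe counted as above background on an array when its detection p was under 0.05. Between 15183 and 16338 probes per array were above background, and precision is limited by having 3 arrays a group. The 16122 probes above background on at least 3 arrays were tested together with limma, and adjusted p-values are over all of these probes. Tal1, the targeted gene, had levels of 12.82, 13.27 and 13.29 on the TG +/+ arrays against 11.21, 9.85 and 11.45 on the TG fl/fl arrays. It fell 4.88-fold (limma adjusted p = 0.0399), but passed in 5 of 16 alternatives (adjusted p 0.00809 to 0.432). It did not pass without TG +/+ array 1 or 2 (0.101 and 0.210) or without TG fl/fl array 1 or 3 (0.0905 and 0.0561), and it is not known here whether its probe matches the excised exons. Of the megakaryocyte markers, 11 of the 12 genes with a probe were tested, of which 8 had a lower and 3 a higher mean in TG fl/fl cells. The brightest, Vwf, Ppbp and Treml1, had differences of -0.45, -0.50 and -0.28 and did not pass, while Itga2b and Gp9 lay at 1.11 and 0.33 (adjusted p = 0.317 and 0.521). Selp, the P-selectin gene, was the only one to pass, 2.53-fold lower (limma adjusted p = 0.00807), in 12 of 16 alternatives and not without TG fl/fl array 1 (adjusted p = 0.0620). The summed linear level of the list ran from 56094 to 60290 on the TG +/+ arrays and from 43876 to 53870 on the TG fl/fl arrays. Samples were not alike in 2 other respects. The median signal before normalization was 6.65 and 6.62 (log2) on TG +/+ arrays 1 and 2 and 6.43 to 6.46 on the other 4 arrays, and the Xist level was 10.55, 10.90 and 9.25 on the TG +/+ arrays but 6.66, 6.95 and 10.55 on the TG fl/fl arrays.

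Every one of the 8 granule genes above background was lower on average in TG fl/fl than in TG +/+ cells, but no difference passed the test. The mean levels of Prg2, S100a8, S100a9 and Prtn3 were 2.56-fold, 1.71-fold, 1.56-fold and 1.53-fold lower, and those of Lyz2, Ctsg, Mpo and Elane 1.32-fold, 1.24-fold, 1.23-fold and 1.21-fold lower, each from the brightest probe. All 10 tested probes, from these 8 genes, were above background on all 6 arrays, so none entered the test through 1 group only. Ltf and Epx, above background on 2 arrays each, were not tested. With limma 0 of the 10 tested probes had an adjusted p under 0.05, against 0.614% of all tested probes, and 5 of the 10 had an unadjusted p under 0.05, against 15.4% of all tested probes in either direction. These 5, of Prtn3, Lyz2, S100a9, S100a8 and Prg2, were lower in TG fl/fl, against 7.95% of all tested probes. A lower mean in TG fl/fl was found for 48.4% of all tested probes, and their median difference was 0.01 (log2). The member counts are not of independent observations, because the probes share the same arrays and Mpo has more than 1 of them. The list was also chosen with earlier results of these data known. These samples are mixtures of cells, so fewer granulocyte-lineage cells and less of a transcript per cell cannot be told apart.

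**Figure D1:**
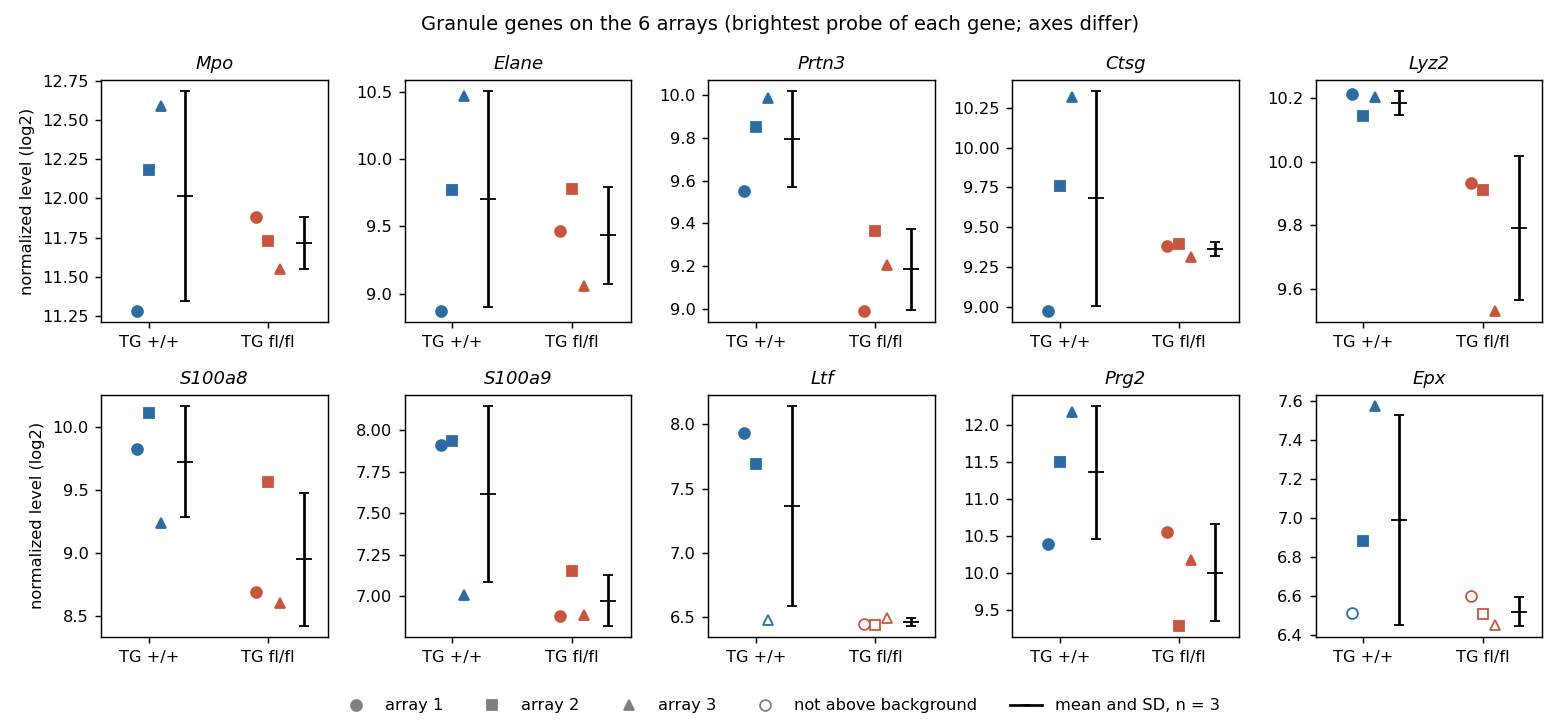
Normalized level (log2) of the brightest probe of each of the 10 granule genes on the 3 TG +/+ (blue) and 3 TG fl/fl (red) arrays, with array number by marker shape, open markers where the probe was not above background, and black bars for mean and SD (n = 3). Prtn3 and Lyz2 show no overlap between groups, Mpo, Elane and Ctsg are highest on TG +/+ array 3 and lowest on TG +/+ array 1, and Ltf is above background on TG +/+ arrays 1 and 2 only.

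The azurophil granule genes Mpo, Elane and Ctsg differed more among the TG +/+ arrays than between the means of the genotypes. Mpo encodes myeloperoxidase, the haem enzyme that makes hypochlorous acid. Its brightest probe had levels of 11.28, 12.18 and 12.59 on TG +/+ arrays 1, 2 and 3 and of 11.88, 11.73 and 11.55 on TG fl/fl arrays 1, 2 and 3. The TG fl/fl levels lay within the TG +/+ range, whose lowest and highest arrays differed by 1.31. The difference of means was -0.30 ± 0.28 (log2, SE; 95% interval -0.95 to 0.35; limma adjusted p = 0.663). The other probes of Mpo showed the same order of the TG +/+ arrays, at 10.32, 11.25 and 11.92 for one and 7.28, 7.64 and 8.71 for the other, with differences of -0.10 and -0.03. The last of these was at 0.03 after background correction, so the direction for Mpo depends on the probe and the scaling.

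Elane encodes neutrophil elastase and Ctsg cathepsin G, both serine proteases that digest microbial and matrix proteins. Elane had levels of 8.87, 9.77 and 10.47 on the TG +/+ arrays and of 9.46, 9.78 and 9.06 on the TG fl/fl arrays. The groups overlapped, with a difference of -0.27 ± 0.36 (SE; 95% interval -1.08 to 0.54; adjusted p = 0.766). For Ctsg the levels were 8.97, 9.76 and 10.32 on the TG +/+ arrays against 9.39, 9.40 and 9.32 on the TG fl/fl arrays. The 3 TG fl/fl values were close together (SD 0.04, n = 3) and lay inside the TG +/+ range (SD 0.67, n = 3), with a difference of -0.32 ± 0.28 (SE; 95% interval -0.95 to 0.32; adjusted p = 0.634).

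Prtn3, which encodes proteinase 3 and lies next to Elane, stood apart from the other azurophil genes. Its levels were 9.55, 9.85 and 9.99 on the TG +/+ arrays and 8.99, 9.36 and 9.20 on the TG fl/fl arrays. All TG fl/fl arrays lay below all TG +/+ arrays. The mean was 9.80 ± 0.22 in TG +/+ and 9.18 ± 0.19 in TG fl/fl cells (SD, n = 3 each), a difference of -0.61 ± 0.14 (SE; 95% interval -0.94 to -0.29) that did not pass (unadjusted p = 0.00221, limma adjusted p = 0.122). With 1 array left out the difference stayed between -0.74 and -0.51, and after background correction it was -0.68 (adjusted p = 0.182).

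Lyz2 encodes lysozyme M, which cleaves bacterial cell walls and is made by neutrophils and macrophages alike. Its only probe above background had levels of 10.21, 10.14 and 10.20 on the TG +/+ arrays and of 9.93, 9.91 and 9.53 on the TG fl/fl arrays. The groups did not overlap, and the TG +/+ arrays, which lay far apart for Mpo and Elane, were here within an SD of 0.04 (n = 3). The difference was -0.40 ± 0.12 (SE; 95% interval -0.68 to -0.12; adjusted p = 0.203), and -0.26 without TG fl/fl array 3. The other 2 Lyz2 probes were not above background on any array, nor were the probes of the close paralog Lyz1. Of the 8 tested genes, only Prtn3 and Lyz2 had every TG fl/fl array below every TG +/+ array, against 8.62% of all tested probes, and none had every TG fl/fl array above, against 9.38%.

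S100a8 and S100a9 encode the subunits of calprotectin, a calcium- and zinc-binding protein abundant in the neutrophil cytosol. S100a8 had levels of 9.82, 10.11 and 9.24 on the TG +/+ arrays and of 8.69, 9.56 and 8.60 on the TG fl/fl arrays. TG +/+ arrays 1 and 2 were the highest, and TG fl/fl array 2 exceeded TG +/+ array 3. For S100a9 the TG +/+ levels were 7.91, 7.93 and 7.01 and the TG fl/fl levels 6.88, 7.15 and 6.89, again with arrays 1 and 2 of TG +/+ above the other 4. The differences were -0.78 ± 0.28 for S100a8 and -0.64 ± 0.23 for S100a9 (SE; 95% intervals -1.43 to -0.13 and -1.17 to -0.11; limma adjusted p = 0.259 and 0.255). With 1 array left out, both passed only without TG +/+ array 3. The differences there were -1.02 (adjusted p = 0.0400) and -0.95 (adjusted p = 0.00470), in a fit in which 1618 probes passed against 99 with all arrays. Without TG fl/fl array 2 the difference of S100a8 was larger, at -1.08. Its unadjusted limma p was smaller there (0.00166 against 0.00327), but its adjusted p was 0.170, so the S100a8 call also depends on how many probes passed. The adjusted p of S100a8 lay between 0.0216 and 0.673 under the alternatives, and that of S100a9 between 0.00470 and 0.744. After background correction, which widens differences of dim probes, that of S100a9 was -1.12 (adjusted p = 0.280).

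Ltf encodes lactoferrin, the iron-binding protein of the specific granules. It was above background on TG +/+ arrays 1 and 2 only, at 7.93 and 7.69, and lay at 6.48 on TG +/+ array 3 and at 6.45, 6.44 and 6.50 on the TG fl/fl arrays. The TG +/+ mean was at least 1.56-fold higher than the TG fl/fl mean, a bound that sets each TG fl/fl array at the lowest level detected on it. The bound rests on 2 of 3 TG +/+ arrays. When probes of any level were tested, the adjusted p of Ltf was 0.395.

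The eosinophil genes Prg2 and Epx had their highest level on TG +/+ array 3. Prg2 encodes major basic protein, the cationic core protein of eosinophil granules, and showed the largest difference in means of the 10 tested probes. Its levels were 10.40, 11.51 and 12.19 on the TG +/+ arrays and 10.56, 9.28 and 10.18 on the TG fl/fl arrays. TG fl/fl array 1 exceeded TG +/+ array 1, so the groups overlapped. The mean was 11.36 ± 0.90 in TG +/+ and 10.01 ± 0.66 in TG fl/fl cells (SD, n = 3 each), with a difference of -1.36 ± 0.45 (SE; 95% interval -2.38 to -0.34; limma adjusted p = 0.227), and of -1.84 without TG +/+ array 1 and -0.95 without TG +/+ array 3. Epx, which encodes eosinophil peroxidase, was above background on TG +/+ arrays 2 and 3, at 6.88 and 7.58. It was not on TG +/+ array 1, at 6.51, or on the TG fl/fl arrays, at 6.60, 6.51 and 6.45. The TG +/+ mean was at least 1.20-fold higher, a bound that rests on 2 of 3 TG +/+ arrays, and with probes of any level tested the adjusted p was 0.559.

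**Figure D2:**
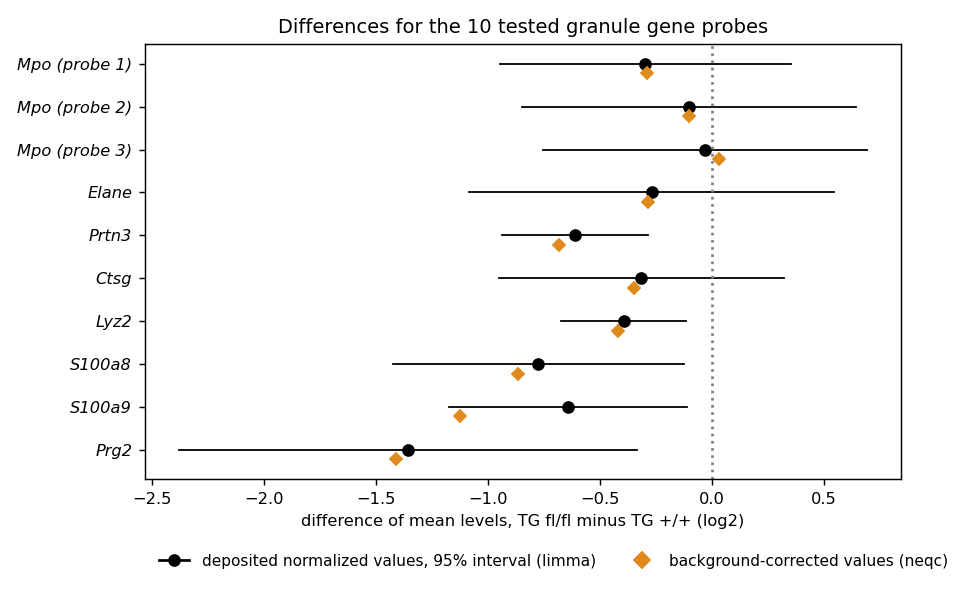
Difference of mean levels (log2), TG fl/fl minus TG +/+, for the 10 tested probes, with black points and lines for the deposited normalized values and their 95% limma intervals and orange diamonds for background-corrected values. The black points run from -1.36 for Prg2 to -0.03 for the dimmest Mpo probe. The intervals of Prtn3, Lyz2, S100a8, S100a9 and Prg2 lie below 0 before adjustment for the number of probes tested.

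The members fell into groups that ranked the TG +/+ arrays in opposite ways. Mpo, Elane, Prtn3, Ctsg and Prg2 were all lowest on TG +/+ array 1 and highest on TG +/+ array 3 within that group. That order was found for 18.8% of all tested probes, and array 3 of TG +/+ was the highest of all 6 for these 5 genes and for 13.3% of tested probes. TG +/+ array 3 exceeded array 1 by 1.60 for Elane, 1.34 for Ctsg, 1.79 for Prg2, 1.06 for Epx and 0.44 for Prtn3. S100a8, S100a9 and Ltf ran the other way, with TG +/+ array 3 minus array 1 at -0.58, -0.91 and -1.45. TG +/+ arrays 1 and 2 were the highest of all 6 for S100a8 and S100a9 and for 18.0% of tested probes. These 2 arrays are also those with the higher median signal before normalization, and the part of that in the levels was not tested.

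The mean of Mpo, Elane, Prtn3 and Ctsg, centred on each gene's mean over the 6 arrays, was -0.44, 0.28 and 0.73 on the TG +/+ arrays and -0.18, -0.05 and -0.33 on the TG fl/fl arrays. Among 8942 other named genes, the one nearest to it was Ms4a3, a membrane protein gene of granulocyte-monocyte progenitors, with a mean absolute difference of 0.09 (log2) over the 6 arrays. Ms4a3 had levels of 6.86, 7.75 and 7.98 on the TG +/+ arrays and of 7.37, 7.42 and 7.12 on the TG fl/fl arrays. Its order within TG +/+ was that of Mpo, which picking the nearest gene favours. Ehd3, an endocytic trafficking gene, Hp, which encodes haptoglobin, Mpig6b, a platelet receptor gene, and Prg3, which encodes an eosinophil major basic protein homolog, followed with mean absolute differences of 0.11, 0.14, 0.16 and 0.16. For S100a8 with S100a9 the nearest genes were Arhgef4, Arpc5, Sdcbp, Ppp1cb and Trim12a, at 0.15 to 0.17. None of these 5 is a granule gene. Each lay higher on TG +/+ arrays 1 and 2 than on the other 4, which follows from picking the genes nearest to that pattern.

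Prg2 had less close neighbours, at 0.28 or more. The nearest was Prss34, a serine protease gene of basophils and mast cells, with levels of 7.82, 8.23 and 8.44 on the TG +/+ arrays and of 7.48, 6.41 and 7.17 on the TG fl/fl arrays. All TG fl/fl arrays lay below the TG +/+ arrays (difference -1.14, limma adjusted p = 0.120). TG fl/fl array 2 was the lowest, as for Prg2, which picking the nearest gene favours. Prss34 was not above background on that array, so the difference uses 1 background value. Of the 5 tested mast cell and basophil genes, Prss34 was the only one with a lower mean, and 4 had a higher mean. Cpa3 lay higher in TG fl/fl cells without overlap (difference 0.68, limma adjusted p = 0.188), and Fcer1a had a difference of 0.51 (limma adjusted p = 0.543). Clu, which encodes the secreted chaperone clusterin, and Ear3, a member of the eosinophil-associated ribonuclease family of the mouse, came next at 0.38 and 0.40. Ear3 was highest on TG +/+ array 2, at 10.05, and had a difference of -1.50 (adjusted p = 0.0580). It passed in 4 of 16 alternatives (limma adjusted p 0.0180 to 0.456). One was the fit without TG +/+ array 3 (adjusted p = 0.0180), in which 1618 probes passed against 99 with all arrays. Serpina3b, a serine protease inhibitor gene, and Pde10a, a phosphodiesterase gene, at 0.41 each, fell in TG fl/fl cells (adjusted p = 0.0106 and 0.0303). They passed in 10 of 15 and 9 of 16 alternatives, and neither passed without TG +/+ array 2 (0.0631 and 0.131) or TG fl/fl array 1 (0.0687 and 0.0905), nor Pde10a without TG fl/fl array 2 or 3 (0.0817 and 0.0561).

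**Figure D3:**
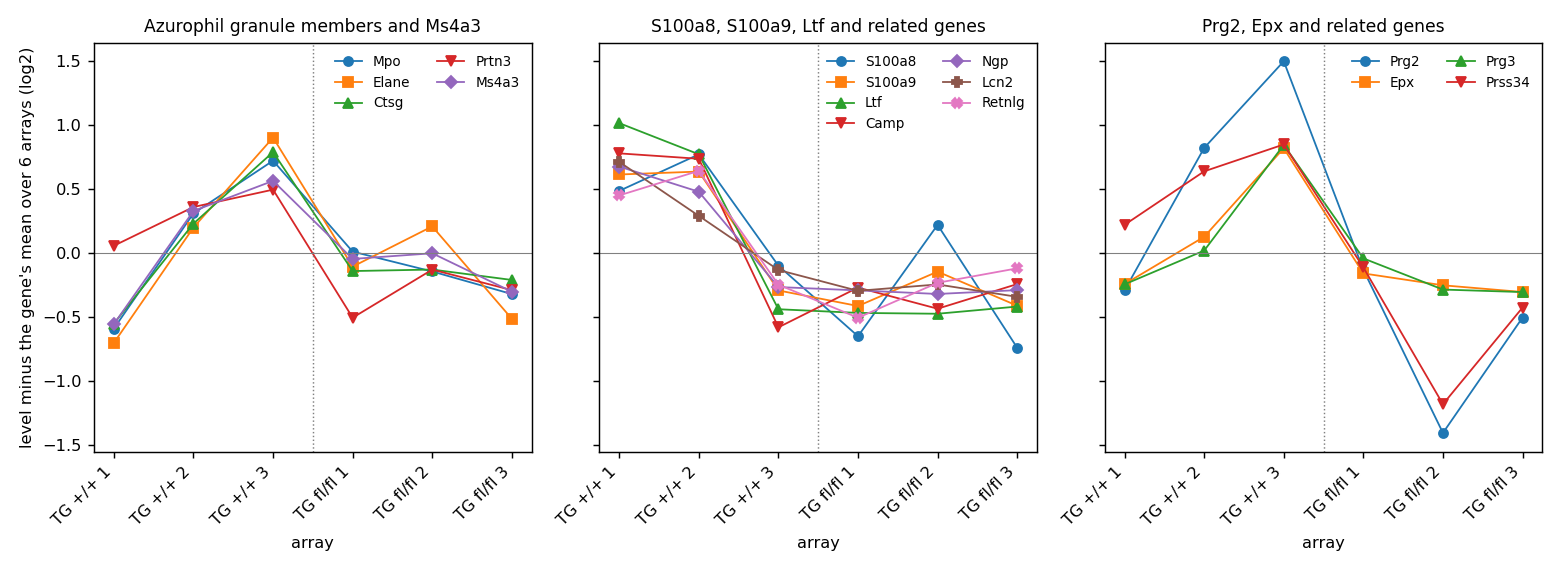
Level of each gene minus its mean over the 6 arrays (log2), by array, for azurophil granule genes with Ms4a3 (left), S100a8, S100a9, Ltf and related neutrophil genes (middle) and Prg2, Epx, Prg3 and Prss34 (right), with a dotted line between TG +/+ and TG fl/fl arrays and levels not above background included. The left and right groups peak on TG +/+ array 3, while the middle group is high on TG +/+ arrays 1 and 2 and low on TG +/+ array 3.

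Camp, Lcn2, Ngp and Retnlg, other genes of late neutrophil development, were high on the arrays on which Ltf was high, while several genes of their list were not. Of 21 genes listed, 18 had a probe and 9 were tested, of which 0 passed with limma (2 had an unadjusted p under 0.05), 5 had a lower mean and the median difference was -0.00, against 0.01 over all tested probes. Camp, which encodes the antimicrobial peptide cathelicidin, had levels of 8.39, 8.35 and 7.03 on the TG +/+ arrays and of 7.34, 7.18 and 7.37 on the TG fl/fl arrays. TG +/+ array 3 was the lowest of the 6 for Camp, and the difference of -0.63 (adjusted p = 0.379) was -1.07 without that array (adjusted p = 0.00206). In that fit 1618 probes passed against 99 with all arrays, and Camp passed in 2 of 15 alternatives. Lcn2, Ngp and Retnlg, which encode lipocalin 2, neutrophilic granule protein and a resistin-like protein, were above background on TG +/+ arrays 1 and 2 and on none of the other 4. Their levels on those 2 arrays were 7.38 and 6.96 for Lcn2, 7.29 and 7.09 for Ngp, and 7.26 and 7.45 for Retnlg, against 6.30 to 6.69 on the other 4 arrays over the 3 genes. Mmp8, Cybb, Cd177, Mmp25, Itgam and Stfa2 were not above background on any array. Mmp9, the gelatinase B gene, lay lower in TG fl/fl without overlap (difference -0.23, adjusted p = 0.304), but was above background on only 1 of 3 TG fl/fl arrays, so that difference is mostly against background. Ltb4r1, which encodes a leukotriene B4 receptor, lay higher without overlap (difference 0.50, adjusted p = 0.193), and Slc11a1, a phagosome metal transporter gene, had a difference of -0.30 (adjusted p = 0.417). Hp, also on this list, was highest on TG +/+ array 3, at 8.52, as Mpo was. Fcnb, Olfm4 and Cyba of the list did not follow Ltf either. Fcnb had 7.13, 7.31 and 7.22 on the TG +/+ arrays and 7.06, 7.32 and 7.28 on the TG fl/fl arrays. On TG +/+ array 1 Olfm4 had its lowest level of all, at 6.53, and Cyba its lowest TG +/+ level, at 12.12.

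The genes that process or restrain the azurophil proteases did not share one direction. Of 17 genes listed for azurophil granules, lysosomes and protease processing, 15 had a probe, and all 15 were tested. Cst7 and Cd63 rose, Serpinb1a fell and 12 did not pass, with a median difference of 0.09 against 0.01 over all tested probes. Serpinb1a, which encodes an inhibitor of neutrophil elastase, proteinase 3 and cathepsin G, had levels of 8.66, 8.68 and 8.43 on the TG +/+ arrays and of 7.58, 7.71 and 7.95 on the TG fl/fl arrays, with no overlap. It fell 1.79-fold (difference -0.84 ± 0.12, SE, limma adjusted p = 0.0324). Cst7, which encodes cystatin F, an inhibitor of cathepsin C, had 8.10, 7.96 and 8.21 on the TG +/+ arrays against 9.22, 9.94 and 9.18 on the TG fl/fl arrays. It rose 2.57-fold (adjusted p = 0.0292), while Ctsc itself, the gene of the peptidase that activates these proteases, had a difference of -0.01.

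Cd63, a tetraspanin gene of azurophil granules that platelet dense granules and lysosomes also contain, rose 1.77-fold (adjusted p = 0.0456). Rab27a, a granule secretion GTPase gene also used by platelets, had a difference of 0.57 without overlap that did not pass (adjusted p = 0.0508). The calls did not hold under every processing: Serpinb1a and Cst7 passed in 9 of 16 alternatives each and Cd63 in 5 of 16, the highest adjusted p being 0.296, 0.358 and 0.432. Leaving out TG +/+ array 1 gave 0.141, 0.101 and 0.176. Without TG +/+ array 2 the adjusted p was 0.183, 0.167 and 0.244, and without TG fl/fl array 1 0.0905, 0.0736 and 0.0784. Serpinb1a also lost its call without TG fl/fl array 2 (0.102), Cst7 without TG fl/fl array 3 (0.0559) and Cd63 without TG fl/fl array 2 or 3 (0.112 and 0.130).

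Transcription factors and receptors of granulocyte development did not pass. Of 16 genes listed, all had a probe and 11 were tested, with 0 past the threshold (limma, 2 with an unadjusted p under 0.05), 6 with a higher and 5 with a lower mean, and a median difference of 0.04 against 0.01 over all tested probes. Cebpa, whose product starts the granulocyte programme, had 7.74, 7.85 and 8.39 on the TG +/+ arrays and 7.56, 7.59 and 7.83 on the TG fl/fl arrays (adjusted p = 0.387). It was highest on TG +/+ array 3, as Mpo was. Irf8, Gfi1 and Csf3r, which encode a monocyte lineage factor, a repressor needed for neutrophils and the G-CSF receptor, were above background only on TG +/+ array 3, at 7.31, 6.79 and 6.93. The lowest level detected on that array was 6.73, so Gfi1 and Csf3r lay near background there. Csf2ra, the alpha chain gene of the GM-CSF receptor, had levels of 9.60, 9.79 and 9.48 on the TG +/+ arrays against 9.13, 9.23 and 9.26 on the TG fl/fl arrays, with no overlap (difference -0.41, adjusted p = 0.149). Trib1, a pseudokinase gene that limits C/EBP alpha protein, lay the other way without overlap, at 6.27, 6.73 and 6.49 on the TG +/+ arrays and 6.83, 6.83 and 6.93 on the TG fl/fl arrays (difference 0.36, adjusted p = 0.237). It was above background on 1 TG +/+ array and on all 3 TG fl/fl arrays, so the TG +/+ mean is mostly background. Il3ra, the interleukin 3 receptor alpha chain gene, had a difference of 0.29 (adjusted p = 0.441). Cebpe, which drives the specific granule genes, had a difference of -0.18 (adjusted p = 0.473) and was above background on 1 of 3 TG fl/fl arrays.

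Of 12 other eosinophil genes listed, 8 had a probe and 2 were tested, Prg3 and Cebpe, both with a lower mean and neither past the threshold. Prg3 had levels of 6.51, 6.78 and 7.61 on the TG +/+ arrays and of 6.72, 6.47 and 6.45 on the TG fl/fl arrays (difference -0.42, limma adjusted p = 0.449), highest on TG +/+ array 3 as Prg2 and Epx were. Prg3 was above background on 2 TG +/+ arrays and 1 TG fl/fl array, so its difference is mostly between background values. The eosinophil surface genes Il5ra, Ccr3 and Siglecf were not above background on any array. In the S100 family and its receptors 8 of 14 genes with a probe were tested and 0 passed with limma (0 with an unadjusted p under 0.05). Only 2 of these 8, S100a6 and Tlr4, had a lower mean, against 48.4% of all tested probes, and the median difference was 0.20, against 0.01. S100a13, with a difference of 0.29 (adjusted p = 0.330), lay higher in TG fl/fl cells without overlap, and the S100a8 and S100a9 receptor gene Ager had a difference of 0.21 (adjusted p = 0.384). Ly96, which encodes the TLR4 partner MD-2, and S100pbp each had a difference of 0.20 (adjusted p = 0.404 and 0.409).

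Markers of other blood cells that could have been sorted with the progenitors differed in how many were above background. Most monocyte, mast cell and T cell genes were not on any array, while most erythroid and B cell genes with a probe were on 3 or more. In the monocyte and macrophage list, 9 of 11 genes with a probe were not above background on any array, among them Adgre1, Cx3cr1, Ccr2 and C1qa. Its summed linear level ran from 1097 to 1883 on the TG +/+ arrays, highest on array 3, and from 1173 to 1405 on the TG fl/fl arrays. Each summed level takes in every gene of a list with a probe, above background or not, and was not background-corrected. Sums of lists with few genes above background are therefore in large part background and do not measure cell content. Ly6c1, the only tested gene of the list, had levels of 8.71 and 9.93 on TG +/+ arrays 2 and 3 and of 8.52, 8.97 and 8.35 on the TG fl/fl arrays. TG +/+ array 1 was the lowest of the 6 and array 3 the highest, as for Mpo. In the mature neutrophil list Cxcr2, Cd177 and Fpr2 were not above background on any array, and 3 of 8 genes with a probe were tested. The summed level of this list was 1332 to 1428 on the TG +/+ and 1604 to 2039 on the TG fl/fl arrays, with Clec4d, a C-type lectin receptor gene, 2.44-fold higher in TG fl/fl cells (adjusted p = 0.00712). Clec4d passed in 13 of 16 alternatives and did not with median scaling (0.0914), the replicate block (0.0793) or the Xist level as a covariate (0.158). Il1b, the brightest gene of the list, had a difference of 0.24 (adjusted p = 0.490). Other genes of the list went the other way. Mmp9, the remaining tested gene, lay lower in TG fl/fl cells (difference -0.23, limma adjusted p = 0.304). Retnlg was above background on TG +/+ arrays 1 and 2 only, and Csf3r on TG +/+ array 3 only. In the mast cell and basophil list 8 of 13 genes were not above background on any array, and the summed level was 1334 to 1530 against 1283 to 1641. Of 10 erythroid genes with a probe, 7 were tested and only Rhd was not above background on any array, with a summed level of 2683 to 3566 on the TG +/+ and 3239 to 8524 on the TG fl/fl arrays. The globin genes Hbb-bt and Hbb-bs had differences of 1.19 and 0.96, and the carbonic anhydrase gene Car1 of 0.14 (adjusted p = 0.234, 0.323 and 0.876). Of 5 B cell genes with a probe, 3 were tested, Cd79b, Vpreb1 and Ebf1, with differences of 0.06, 0.46 and 0.07, none of which passed. Cd79a and Pax5 were not above background on any array, and the summed level was 1274 to 1311 against 1304 to 1477. In the T and NK cell list 5 of 7 genes with a probe were not above background on any array, while Nkg7 was at 12.44 to 13.55, and the summed level was 6042 to 6273 against 6105 to 12521. That sum is mostly Nkg7. The Y-linked genes Eif2s3y and Uty had differences of 0.60 and -0.09 and did not pass. The part of these cell types in the granule gene levels was not tested.

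Which TG +/+ array was left out set the size and sign of the differences for Mpo, Elane and Ctsg. Without array 3 the differences were -0.01 for the brightest Mpo probe, 0.11 for Elane and 0.00 for Ctsg, and the other Mpo probes were at 0.27 and 0.39. Without array 1 they were -0.67 for Mpo, -0.69 for Elane and -0.67 for Ctsg. The differences of Prtn3, Lyz2, S100a8, S100a9 and Prg2 were below 0 in each of the 6 fits. Across these fits they ranged from -0.47 to -0.26 for Lyz2, from -1.08 to -0.58 for S100a8, from -0.95 to -0.48 for S100a9 and from -1.84 to -0.95 for Prg2. With the Xist level as a covariate, an alternative chosen after the data were seen, the differences were -0.57 for Mpo, -0.74 for Elane, -0.51 for Ctsg and -0.60 for Lyz2, with adjusted p of 0.755, 0.729, 0.780 and 0.328. That of S100a9 was smaller, at -0.52, and those of Prtn3, S100a8 and Prg2 were -0.63, -0.86 and -1.47, with adjusted p from 0.497 to 0.744 for these 4.

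**Figure D4:**
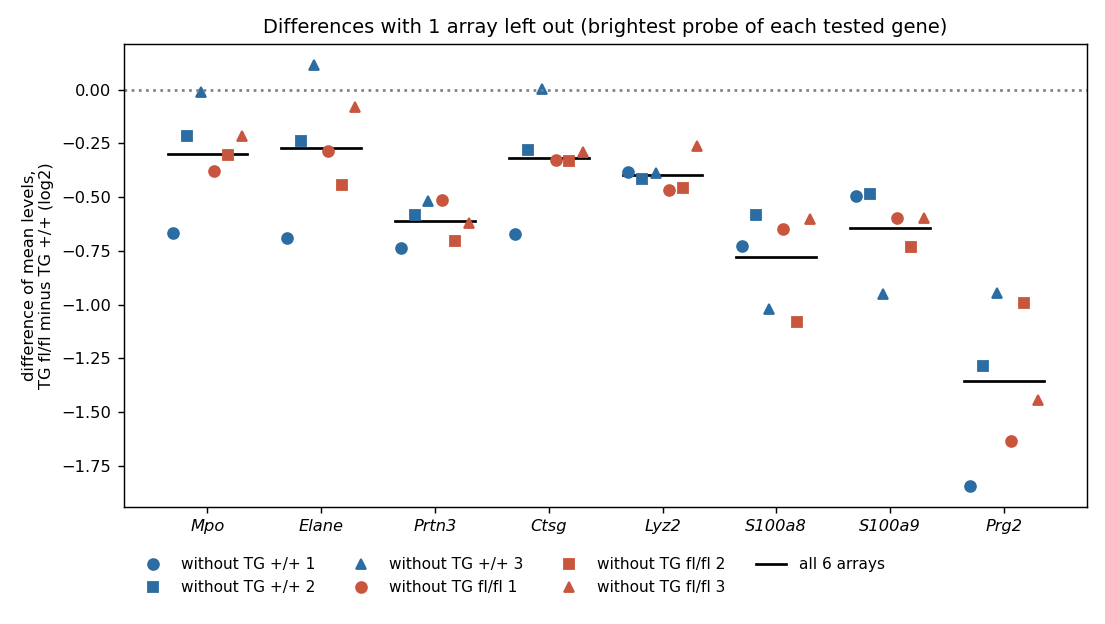
Difference of mean levels (log2), TG fl/fl minus TG +/+, for the brightest probe of the 8 tested genes, with black lines for all 6 arrays and symbols for fits without 1 array, coloured by the genotype of the array left out. Without TG +/+ array 3 (blue triangles) Mpo, Elane and Ctsg lie at -0.01, 0.11 and 0.00, while S100a8 and S100a9 move to -1.02 and -0.95.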

How the data were processed

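The 6 total RNA samples received a biotin label during amplification and were read on mouse bead arrays from Illumina, per the labels' protocols. Groups and replicate numbers came from the sample titles. The authors' deposited normalized table holds log2 values whose distribution is equal between arrays, within 0.0865 of plain quantile normalization of the deposited log2 signals that were not normalized. The submitters' processing notes name limma; no source used here gives the other steps. A deposited detection score rose with signal (lowest rank correlation 0.997), so the detection p was taken as 1 minus it. Without background correction these levels understate the fold changes of dim probes, and a shift common to most genes would be lost by making distributions equal.

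The platform annotation gave 1 symbol for 29976 probes. Groups were compared with limma 3.58.1 in R 4.3.3 (lmFit and eBayes, two-sided, Benjamini-Hochberg) over the 16122 probes for which 3 or more arrays had a detection p under 0.05. An exact permutation test of 3 against 3 arrays cannot give a p under 0.1 and was not used. The fit was checked on simulated data. Genes named beyond the members were Tal1, Xist, from each related list the 4 with the smallest p, from marker lists the 3 with the highest level, and the 5 genes nearest to each member pattern; others were chosen after their values were seen. The members and lists were chosen with earlier results of these data known. Alternatives were neqc (offset 16), quantile normalization and median scaling of the signals, other filters and priors, weights per array, a block for the replicate number, the brightest probe per gene and leaving out each array.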

Additional observations from a re-analysis of the deposited data

How the results depend on the processing

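With array weights 4 member probes passed, those of Prtn3, Lyz2, S100a8 and S100a9, against 0 with equal weights; the weights ran from 0.412 for TG +/+ array 3 to 2.07 for TG +/+ array 1. With 1 array left out 0 to 2 member probes passed. Over all tested probes 99 passed, against 2 with median scaling, 1694 with array weights, 3 with the replicate block, 1 with the Xist level as a covariate and 11 to 1618 with 1 array left out. Of the related lists 3 probes passed, against 0 with median scaling, 7 with array weights, 0 with the replicate block, 0 with the Xist covariate and 0 to 9 with 1 array left out. Same-numbered samples did not deviate together (correlations 0.112, -0.328 and -0.221 for numbers 1, 2 and 3), and no sample correlated best with its own number. The replicate block changed no call of a member.

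Of 161 member values under alternatives, 147 kept their direction and side of the threshold, 6 passed it and 8 changed sign, all of probes that did not pass. Other filters or priors, the brightest probe per gene and the replicate block cannot change a difference, so direction was fixed there. The 147 also include Ltf, Epx and the dimmer Lyz2 probes, which were not tested in the main fit and so had no side of the threshold. The middle Mpo probe was at 0.18 with array weights, and the dimmest at 0.21 with array weights and 0.029 with neqc. With 1 array left out, differences ranged from -0.52 to 0.27 for the middle Mpo probe, from -0.33 to 0.39 for the dimmest (0.09 without TG fl/fl array 3), from -0.69 to 0.11 for Elane, from -0.67 to 0.000458 for Ctsg and from -0.70 to 0.0195 for Hp, the lowest without TG +/+ array 1 and the highest without TG +/+ array 3. The cause of these shifts was not tested. Signal over background limits Ltf, Epx, the dimmer Lyz2 probes, Mmp9, Prg3, Cebpe, Trib1, Prss34, Irf8, Gfi1, Csf3r, Lcn2, Ngp and Retnlg. It also limits S100a9, whose detection p was 0.00998 to 0.0231 on TG +/+ array 3 and the TG fl/fl arrays. S100a9 was not tested under the filter of detection p under 0.01 on all 6 arrays.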

Other observations

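TG fl/fl array 2, on which Prg2 had its lowest level, also had the highest levels of the globin genes. Hbb-bt was at 11.33 there, against 9.58 and 9.63 on TG fl/fl arrays 1 and 3. On the TG +/+ arrays Hbb-bt ran from 8.85 to 9.09, and the groups did not overlap (limma adjusted p = 0.234). Nkg7, a cytotoxic granule membrane protein gene, was likewise highest on TG fl/fl array 2, at 13.55, against 12.44 to 12.87 on the other 5 arrays. The T and NK cell genes Cd3e, Cd3g, Klrd1, Cd2 and Gzma were not above background on any array. Cd3d, the remaining gene of that list, was above background on TG fl/fl array 2 only, at 6.78, where the lowest detected level was 6.76. Cpa3 and Fcer1a, genes of mast cells and basophils, were highest on the same array, at 8.17 and 8.76, where the basophil and mast cell protease gene Prss34 was lowest.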
